A study of Mus musculus with 6 samples.

Results

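Transcripts of 10 chemokine genes, Ccl2, Ccl3, Ccl4, Ccl5, Ccl6, Ccl7, Ccl9, Ccl12, Cxcl2 and Cxcl16, were measured by RNA-Seq in cultures of mouse osteoclasts. The genes were chosen by name as chemokines made by such cultures. No measured value entered the rule, but earlier results of these data were known when the choice was made. The members are 10 of the 55573 genes counted in each library. The groups were Ctsk Cre/WT;Rosa Hes1 osteoclasts, called Rosa-Hes1, and control osteoclasts, with 3 libraries each. In the Rosa-Hes1 group Cre is made from the cathepsin K gene (Ctsk), which osteoclasts switch on as they mature. Cre then removes a stop cassette in front of Hes1 and green fluorescent protein in the Rosa26 locus, so that HES1 is made from that locus in the cells that have expressed Ctsk and not in their earlier precursors. The labels call the controls wild type, whereas the methods of the study describe littermates that carry the Rosa allele with its stop cassette and no Cre. The Rosa-Hes1 cultures therefore also differ from the controls by the Cre inserted into 1 copy of Ctsk. All cultures came from male, 10-week-old mice, and the alleles were brought together from lines of different genetic backgrounds, so the genotype at the chemokine genes was not known for each culture. Bone marrow-derived macrophages were turned into osteoclasts over 4 days, with 30 ng/ml of M-CSF for survival and growth and 10 ng/ml of RANKL for differentiation, before RNA was taken.

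Chemokines are small proteins that draw cells toward their source through receptors coupled to G proteins, and the CC and CXC families are named after the spacing of their first cysteines. In bone they bring monocytes and osteoclast precursors to sites of resorption, and RANKL is known to raise several of them in precursors, among them CCL9, a ligand of the receptor CCR1. CXCL16 differs from the other members in being made as a protein that spans the cell membrane, where it can also take up oxidized lipids, and proteases of the ADAM family release its soluble form. HES1 is a transcriptional repressor induced by Notch that binds short DNA elements called the N-box and the class C site.

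The 6 libraries held 13038362 to 15956331 counts assigned to genes. Hes1, used as a check of the labels, had 4.95, 4.83 and 6.91 counts per 1000000 (CPM) in the Rosa-Hes1 libraries, against 0.517, 0.557 and 0.296 CPM in the control libraries, a log2 fold change of 3.57 (SE 0.30, adjusted p = 0.00477 by edgeR). Of 14 osteoclast markers, 12 were higher in Rosa-Hes1 and their summed level was 22389, 19933 and 23227 CPM, against 12516, 15881 and 14578 CPM in control. The 17 macrophage and monocyte markers summed to 10989, 10292 and 12123 CPM in Rosa-Hes1 and 11373, 10745 and 12872 CPM in control. Of these, Cd68 was higher and Cx3cr1, a chemokine receptor of monocytes, was lower (log2 fold changes 0.52 and -0.50, adjusted p = 0.0142 and 0.0404). When Rosa-Hes1 replicate 1, Rosa-Hes1 replicate 3 or control replicate 3 was left out, 4, 7 and 6 osteoclast markers passed. Cd68 passed in 3 and Cx3cr1 in 1 of the 6 fits with a library left out (adjusted p 0.00281 to 0.0693 and 0.0465 to 0.133).

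Levels of different genes were compared as CPM per kilobase of exon, so that longer genes are not counted higher for their length. Ccl9 had the highest level, 324, 364 and 359 CPM per kilobase in the Rosa-Hes1 libraries, against 311, 331 and 354 CPM per kilobase in control. It held the first place in all 6 libraries, above Ccl5 (178 ± 89.5 in Rosa-Hes1 and 146 ± 46.9 in control, mean ± SD of CPM per kilobase, n = 3), Ccl6 (99.5 ± 19.5 and 111 ± 54.3) and Ccl2 (71.0 ± 15.1 and 97 ± 17.2). These 3 genes changed places with each other between libraries, so their order is within their spread. Cxcl16 was in the fifth place in all 6 libraries, with 43.1 ± 3.58 CPM per kilobase in Rosa-Hes1 and 61.3 ± 3.26 in control. Ccl7 (28.3 ± 11.3 in Rosa-Hes1 and 41.2 ± 11.6 in control) and Ccl3 (30.3 ± 6.22 and 37.2 ± 9.01) also exchanged places. Ccl4, Ccl12 and Cxcl2 took the last 3 places in that order in every library. Cxcl2, a ligand of neutrophils, was the lowest, with 2.15 ± 0.703 CPM per kilobase in Rosa-Hes1 and 1.57 ± 0.537 in control. The order of all 10 was the same without TMM scaling and when the length of the longest coding transcript was used in place of all exons.

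**Figure D1:**
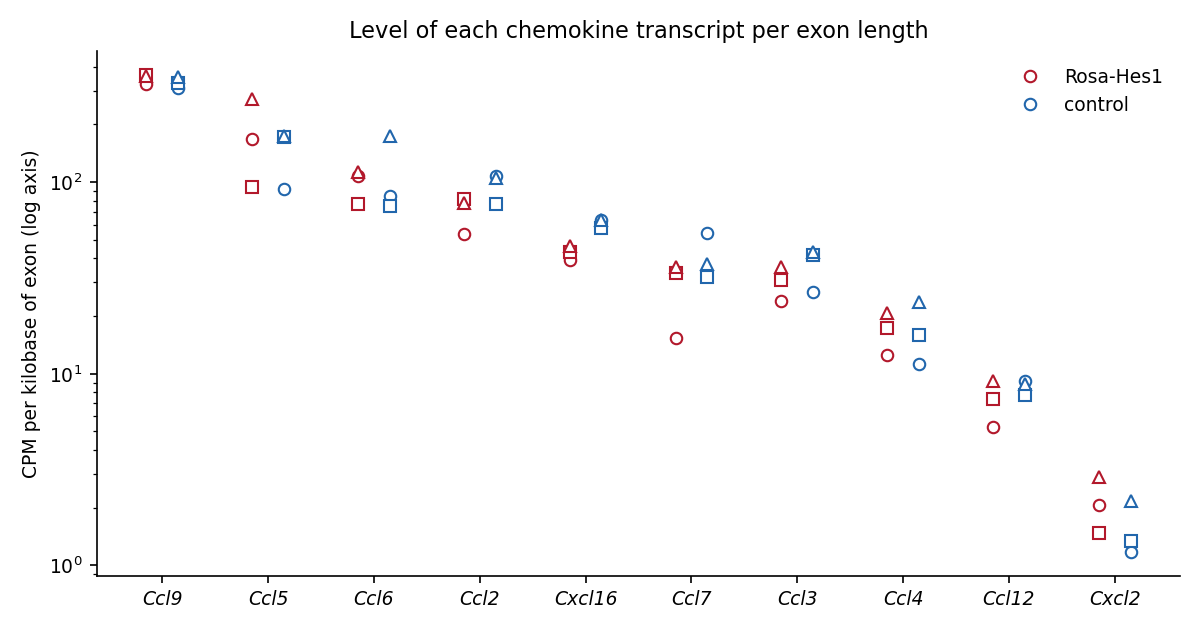
Level of each chemokine transcript in CPM per kilobase of exon on a log axis, ordered by the mean over all libraries, with 1 point per library (circle, square and triangle for replicates 1, 2 and 3; Rosa-Hes1 left in red, control right in blue). Ccl9 lies above every other member in all 6 libraries, Cxcl2 lies lowest, and the points of Ccl5, Ccl6 and Ccl2 overlap.

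Between the groups, 1 of the 10 chemokines changed. Cxcl16 was lower in Rosa-Hes1, none was higher, and the other 9 did not pass the test, which was an adjusted p under 0.05 in edgeR's quasi-likelihood test over 16954 genes. Of all genes tested, 8.25% passed, 5.85% as higher and 2.41% as lower, so that 1 call among 10 genes is near what the whole table gives. At an unadjusted p under 0.05 there were 2 members, Cxcl16 and Ccl2, both lower, beside 25.7% of all genes. DESeq2 called no member higher and 1 lower, again Cxcl16. The median log2 fold change of the members was -0.20, with 3 values above 0 and 7 below, against -0.01 over all genes tested. This median moved to -0.35 when Rosa-Hes1 replicate 3 was left out, to -0.10 when Rosa-Hes1 replicate 1 was, and to -0.03 when control replicate 3 was. The summed level of the 10 genes was 1569, 1630 and 1868 CPM in Rosa-Hes1 and 1579, 1644 and 1955 CPM in control, and these ranges overlapped. Cxcl16 was also the 1 member whose groups did not overlap, where 31.2% of all tested genes had groups that did not.

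**Figure D2:**
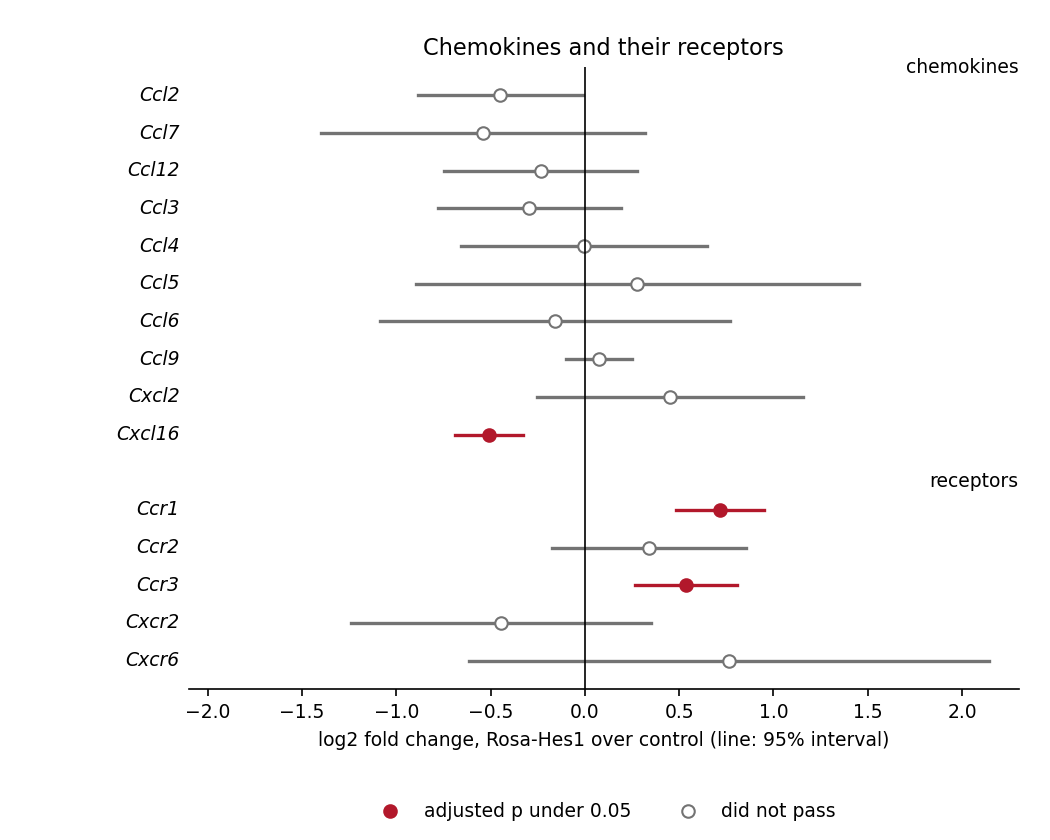
Log2 fold change, Rosa-Hes1 over control, of the 10 chemokines and 5 of their receptors, with 95% intervals as lines and filled symbols for an adjusted p under 0.05. Cxcl16 at -0.51 is the filled symbol among the chemokines, and Ccr1 and Ccr3 are the filled symbols among the receptors, both above 0.

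Cxcl16 (ENSMUSG00000018920, chr11:70453983-70459984 on the minus strand of GRCm38) encodes the ligand of CXCR6. It had 119, 130 and 141 CPM in the Rosa-Hes1 libraries, against 191, 174 and 191 CPM in the control libraries. Every Rosa-Hes1 library was below every control library, and the lowest control library was above the highest Rosa-Hes1 library by more than the range within the controls. This gave a log2 fold change of -0.51 (SE 0.08, 95% interval -0.69 to -0.33), which is a level 0.702 times that of control, with an adjusted p of 0.0101. It rests on 1807 to 1999 counts in Rosa-Hes1 and 2585 to 2810 in control. Without Rosa-Hes1 replicate 1, the lowest of the 6 libraries, the log2 fold change was -0.45 and the adjusted p was 0.0561. With each other library left out, the adjusted p was between 0.0111 and 0.0456. In such cultures, fewer cells that make a transcript and less of it per cell cannot be told apart. Osteoclast markers were higher in the same libraries, as given above, and their part in the result was not tested.

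Of the 3021 exon bases of Cxcl16, 552 (18.3%) are also exon of Zmynd15 on the other strand. The library kit marks strand, but the setting used in counting is not given in the sources used here, so reads from the shared bases may have been split or set aside as ambiguous. Zmynd15 itself had 13.4, 17.4 and 21.1 CPM in Rosa-Hes1, against 25.5, 18.1 and 23.6 CPM in control. Its groups overlapped, its log2 fold change was -0.37 (SE 0.18, adjusted p = 0.247), and in every library its level was far below that of Cxcl16.

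**Figure D3:**
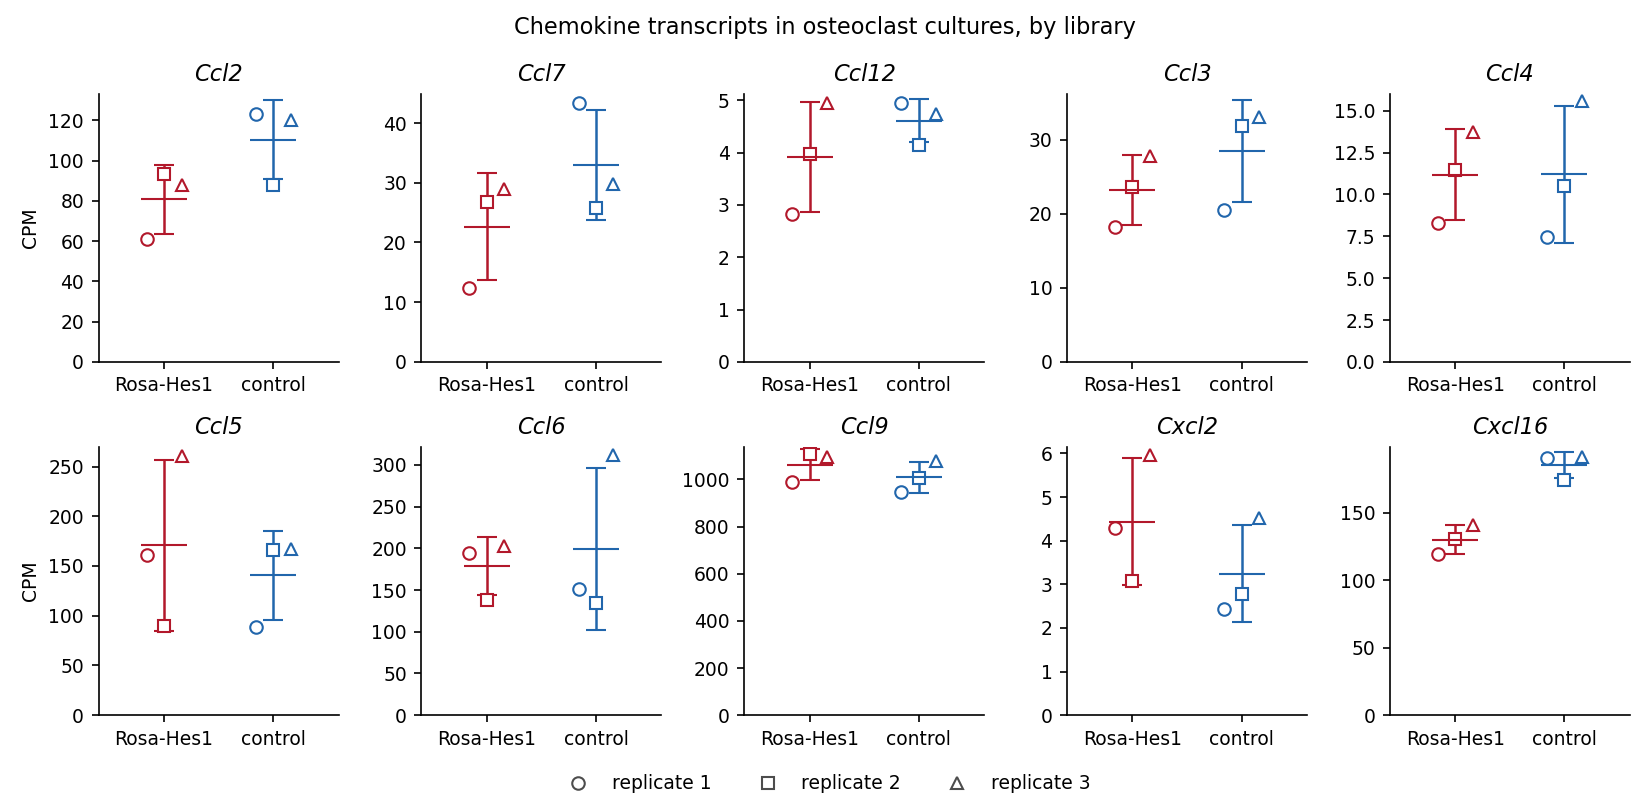
CPM of the 10 chemokines in each library on linear axes that start at 0 and differ between panels, with Rosa-Hes1 in red on the left and control in blue on the right; horizontal lines are means and bars are SD (n = 3), and symbols give the replicate number. The Cxcl16 points of Rosa-Hes1 (119 to 141) lie below all those of control (174 to 191), and in the other 9 panels the groups overlap.

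Ccl2, Ccl7 and Ccl12 encode the monocyte chemoattractants that act through CCR2, and CCL7 also uses CCR1 and CCR3. They lie in 1 cluster on the plus strand of chromosome 11, at chr11:82035571-82037453 (ENSMUSG00000035385), chr11:82045712-82047525 (ENSMUSG00000035373) and chr11:82101845-82103400 (ENSMUSG00000035352). Their fold changes were all below 0, and none passed the adjusted test in edgeR (1 of the 3 at an unadjusted p under 0.05, none in DESeq2). Ccl2 had 61.1, 93.2 and 88.1 CPM in Rosa-Hes1, against 123, 87.8 and 120 CPM in control. Control replicates 1 and 3 were above all Rosa-Hes1 libraries, but control replicate 2 lay among them. For Ccl2 the log2 fold change was -0.45 (SE 0.19, 95% interval -0.89 to -0.01, adjusted p = 0.185 by edgeR), close in size to that of Cxcl16 but with an error more than 2 times as wide.

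Ccl7 had 12.3, 26.8 and 28.9 CPM in Rosa-Hes1, against 43.4, 25.7 and 29.8 CPM in control. The 2 extremes were Rosa-Hes1 replicate 1 at the low end and control replicate 1 at the high end, and the other 4 libraries lay close together. Its log2 fold change was -0.54 (SE 0.35, interval -1.40 to 0.32, adjusted p = 0.410) and became -0.24 without Rosa-Hes1 replicate 1. Ccl12, known in mice as a further CCR2 ligand, had 2.84, 3.98 and 4.94 CPM in Rosa-Hes1, against 4.94, 4.15 and 4.73 CPM in control. With 43 to 68 counts per library its log2 fold change was -0.23 (SE 0.22, interval -0.74 to 0.28, adjusted p = 0.576), and without Rosa-Hes1 replicate 1 it was -0.05. Ccl2 and Ccl7 are also made by stromal cells, and the 9 osteoblast and stroma markers summed to 314, 426 and 126 CPM in Rosa-Hes1 and 547, 206 and 200 CPM in control. Col1a1, a collagen gene of this list, was highest in control replicate 1, with 132, 188 and 53.0 CPM in Rosa-Hes1 and 244, 86.2 and 85.9 CPM in control. That library also held the highest Ccl2 and Ccl7. Rosa-Hes1 replicate 3, in contrast, had the lowest Col1a1 and the highest Ccl7 of its group. Control replicate 3 had the lowest Col1a1 of the controls and 120 CPM of Ccl2, against 123 CPM in control replicate 1. The part of stromal cells in these levels was not tested.

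Ccl3, Ccl4 and Ccl5 encode inflammatory CC chemokines that attract monocytes and T cells, of which CCL3 and CCL5 bind CCR1. Together with Ccl6 and Ccl9 they form a second cluster on chromosome 11, at chr11:83647844-83649355 on the minus strand (Ccl3, ENSMUSG00000000982), chr11:83662584-83664683 on the plus strand (Ccl4, ENSMUSG00000018930) and chr11:83525778-83530518 on the minus strand (Ccl5, ENSMUSG00000035042). Ccl3 had 18.3, 23.6 and 27.8 CPM in Rosa-Hes1, against 20.5, 31.9 and 33.0 CPM in control. Control replicate 1 fell within the Rosa-Hes1 range and the other controls lay above it (log2 fold change -0.30, SE 0.21, interval -0.78 to 0.19, adjusted p = 0.435). Ccl4 had 8.31, 11.5 and 13.7 CPM in Rosa-Hes1, against 7.45, 10.5 and 15.6 CPM in control. Both the lowest and the highest library were controls, the mean was 11.2 CPM in each group, and the interval of the log2 fold change was -0.66 to 0.65 (SE 0.28, adjusted p = 0.995).

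Ccl5, which encodes RANTES and is also a product of T cells and of interferon responses, varied more within the groups than between them. It had 161, 90.1 and 261 CPM in Rosa-Hes1, against 88.6, 166 and 167 CPM in control. Rosa-Hes1 held the highest library of Ccl5, while Rosa-Hes1 replicate 2 and control replicate 1 were low and nearly equal. The coefficient of variation was 50.3% in Rosa-Hes1 and 32.0% in control, where counting alone gives 2.13% and 2.31%. Its log2 fold change of 0.28 (SE 0.46, interval -0.90 to 1.45, adjusted p = 0.774) was -0.17 without Rosa-Hes1 replicate 3. Of 9 T and NK cell markers, Cd3e, Cd3g and Gzma had 0 counts in every library, and the list summed to 3.43, 3.78 and 7.34 CPM in Rosa-Hes1 and 5.98, 7.74 and 3.99 CPM in control. Most of this sum was Cd4, and the part of such cells in the Ccl5 levels was not tested.

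Ccl9 and Ccl6 encode mouse chemokines that act through CCR1. They lie side by side on the minus strand, at chr11:83572919-83578636 (ENSMUSG00000019122) and chr11:83587882-83593087 (ENSMUSG00000018927). Of their aligned coding bases, 65.1% are identical, and the longest stretch shared by their transcripts has 25 bases. Ccl9 had 987, 1109 and 1093 CPM in Rosa-Hes1, against 946, 1007 and 1077 CPM in control. The groups overlapped and the coefficient of variation was 6.21% in Rosa-Hes1 and 6.51% in control. A log2 fold change of 0.07 (SE 0.08, adjusted p = 0.613) had the narrowest 95% interval of the 10 members, -0.10 to 0.25, which does not reach the size of the Cxcl16 difference in either direction.

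Ccl6, despite its similarity and closeness to Ccl9, was far more variable in control. It had 194, 139 and 203 CPM in Rosa-Hes1, against 152, 135 and 311 CPM in control. Control replicate 3 stood above the other 5 libraries, and the coefficient of variation was 19.6% in Rosa-Hes1 and 48.9% in control. The log2 fold change of -0.16 (SE 0.37, interval -1.09 to 0.77, adjusted p = 0.846) was 0.32 without control replicate 3. Granulocytes also make Ccl6, and the 10 neutrophil markers summed to 248, 350 and 285 CPM in Rosa-Hes1 and 525, 359 and 262 CPM in control. Their part in the Ccl6 levels was not tested.

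Cxcl2 (ENSMUSG00000058427, chr5:90903871-90905938 on the plus strand) encodes a ligand of CXCR2 that attracts neutrophils and is induced through NF-kappaB. It had 4.29, 3.07 and 5.96 CPM in Rosa-Hes1, against 2.44, 2.79 and 4.51 CPM in control, from 33 to 82 counts per library. The groups overlapped, with the highest library of each group in replicate 3 (log2 fold change 0.45, SE 0.31, interval -0.26 to 1.16, adjusted p = 0.416). Cxcl2 shares 87.7% of its coding bases with its neighbour Cxcl3. The transcripts of the pair share an unbroken stretch of 157 bases, longer than the 75-base reads. Reads of this pair may therefore have been exchanged or set aside, and the Cxcl2 values are uncertain. Cxcl3, named for this reason after its values were seen, had 5.74, 1.76 and 8.87 CPM in Rosa-Hes1 and 1.48, 6.07 and 2.66 CPM in control. No pair of members shared a transcript stretch of more than 25 bases.

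The start regions of 5 members, Ccl3, Ccl6, Ccl9, Ccl12 and Cxcl2, were found among the RefSeq promoters of GRCm38.p6, each with 250 bases before and 50 after the start site. They were searched on both strands for the N-box CACNAG and the class C site CACGNG, the elements of HES repressors, and for a kappaB site written as GGANNTTCC. An element such as CACGAG is both an N-box and a class C site. Of 32851 promoter windows of the same length, 42.5% held the N-box, 27.5% the class C site and 4.26% the kappaB site. The 250 bases before the start of Ccl9, the most abundant member, of Ccl3, the member with N-boxes, and of Cxcl2 and Ccl12, the members with a kappaB site, are shown 5′ to 3′ on the strand of the gene, with every match in capitals.
Ccl9, chr11:83578637-83578886, minus strand: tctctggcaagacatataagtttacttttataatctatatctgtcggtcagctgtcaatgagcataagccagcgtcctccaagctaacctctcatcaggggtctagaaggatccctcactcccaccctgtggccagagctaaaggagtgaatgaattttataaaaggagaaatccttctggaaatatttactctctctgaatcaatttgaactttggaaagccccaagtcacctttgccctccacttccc
Ccl3, chr11:83649379-83649628, minus strand: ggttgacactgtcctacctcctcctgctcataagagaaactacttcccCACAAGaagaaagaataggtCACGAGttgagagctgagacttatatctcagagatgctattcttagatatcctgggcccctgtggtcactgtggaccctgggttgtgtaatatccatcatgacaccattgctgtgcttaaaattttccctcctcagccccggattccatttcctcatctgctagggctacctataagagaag
Cxcl2, chr5:90903649-90903898, plus strand: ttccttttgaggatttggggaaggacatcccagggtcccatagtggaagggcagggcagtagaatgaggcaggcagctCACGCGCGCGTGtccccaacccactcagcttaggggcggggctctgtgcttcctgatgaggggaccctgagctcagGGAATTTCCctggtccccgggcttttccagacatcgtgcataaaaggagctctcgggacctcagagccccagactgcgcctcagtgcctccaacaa
Ccl12, chr11:82101595-82101844, plus strand: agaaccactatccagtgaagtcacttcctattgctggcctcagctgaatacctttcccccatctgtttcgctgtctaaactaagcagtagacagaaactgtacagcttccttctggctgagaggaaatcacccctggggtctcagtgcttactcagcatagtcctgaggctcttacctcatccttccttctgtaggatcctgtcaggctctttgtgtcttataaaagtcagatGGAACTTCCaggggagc

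Ccl3 held an N-box match at position -202 from the start site and a second at -182 that is also a class C match, and another N-box match lay at 18, after the start. Cxcl2 held class C matches at -172 and -166, which adjoin, and the kappaB match GGAATTTCC at -96. Ccl12 held the kappaB match GGAACTTCC at -17. Neither Ccl9 nor Ccl6 held a match to any of the 3 elements in this window. Beside these sequences stand log2 fold changes of -0.30 for Ccl3, 0.45 for Cxcl2, -0.23 for Ccl12, 0.07 for Ccl9 and -0.16 for Ccl6, of which none passed the test in edgeR or DESeq2.

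Rosa-Hes1 replicate 1 was the lowest library of its group for 7 of the 10, Ccl2, Ccl7, Ccl12, Ccl3, Ccl4, Ccl9 and Cxcl16. Leaving it out moved the log2 fold changes of all 7 upward, which follows from its being the lowest and is no separate result. Ccl5, Ccl6 and Cxcl2 were lowest in Rosa-Hes1 replicate 2. As a description over 6 libraries that share depth and culture, the deviations from the group means had a Pearson correlation of 0.897 for Ccl2 with Ccl7, 0.919 for Ccl3 with Ccl4 and -0.31 for Ccl2 with Ccl5. Of the 45 pairs of members, 41 had a correlation above 0 and 4 below. The share among pairs of other genes was not computed, so this count is not a trait of the chemokines. The 3 genes whose log2 CPM was most like that of Ccl9 over the 6 libraries were Slc2a8, Cyp4f17 and Chn1, with Pearson correlations of 0.996, 0.983 and 0.983 among all genes tested. They were picked for these high values, and shared regulation was not tested. With 1 library left out at a time, Ccl4, Ccl5 and Ccl6 changed the sign of their fold change, and the other 7 kept it. The log2 fold change of Cxcl16 stayed between -0.58 and -0.45, and that of Ccl9 between 0.03 and 0.12.

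**Figure D4:**
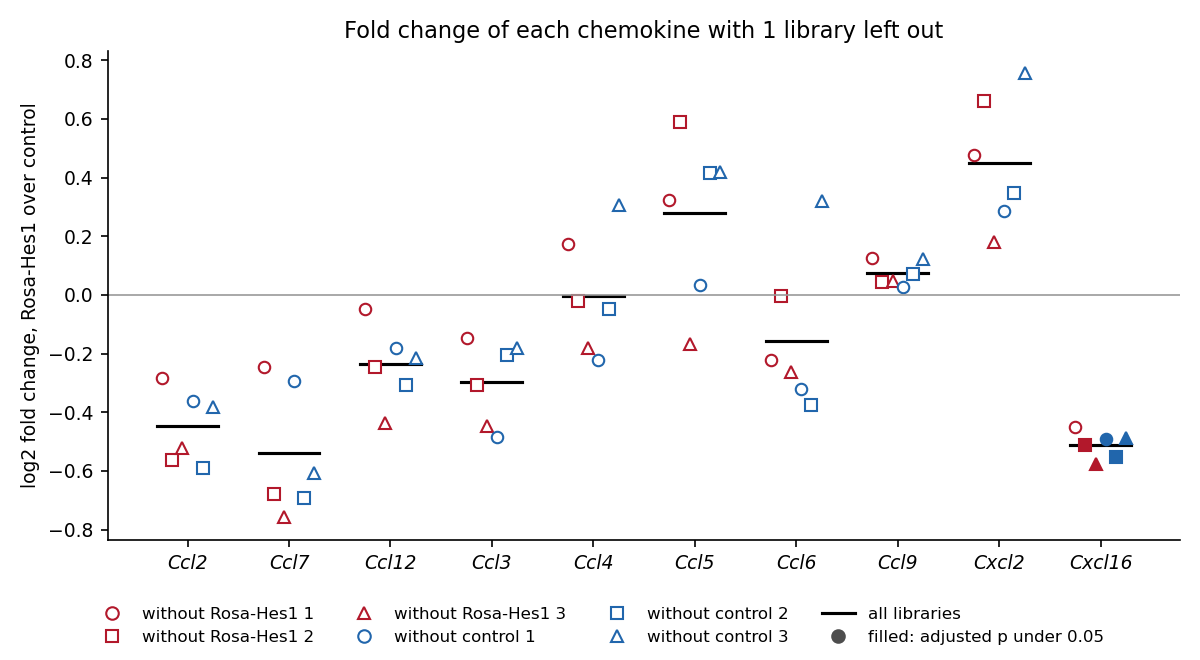
Log2 fold change, Rosa-Hes1 over control, of each chemokine with all 6 libraries (black line) and with 1 library left out (red for a Rosa-Hes1 library, blue for a control library; circle, square and triangle for replicates 1, 2 and 3), filled where the adjusted p was under 0.05. Cxcl16 stays between -0.58 and -0.45 and is filled in 5 of 6, while the points of Ccl4, Ccl5 and Ccl6 lie on both sides of 0.

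Of 5 receptors for these chemokines, Ccr1, Ccr2, Ccr3, Cxcr2 and Cxcr6, 2 were higher in Rosa-Hes1, beside 5.85% of all genes tested. Ccr1, the receptor of CCL3, CCL5, CCL6, CCL7 and CCL9, had 528, 472 and 538 CPM in Rosa-Hes1, against 280, 360 and 294 CPM in control. The groups were apart in every library, the log2 fold change was 0.72 (SE 0.10, adjusted p = 0.00770), and the call held with any library left out. Ccr3, a receptor of CCL5 and CCL7, had 77.1, 65.1 and 78.9 CPM in Rosa-Hes1, against 45.1, 59.4 and 47.8 CPM in control (log2 fold change 0.53, SE 0.12, adjusted p = 0.0311). The groups did not overlap, but the Ccr3 call was lost without control replicate 1 or 3 or Rosa-Hes1 replicate 1 or 3 (adjusted p 0.0949 to 0.123).

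Ccr2, the receptor of CCL2, CCL7 and CCL12, had 81.3, 51.9 and 71.9 CPM in Rosa-Hes1, against 69.9, 44.4 and 47.9 CPM in control, and its groups overlapped (log2 fold change 0.34, SE 0.22, adjusted p = 0.389). Cxcr2, the receptor of CXCL2, and Cxcr6, that of CXCL16, were low. Cxcr2 had 2.77, 2.54 and 1.82 CPM in Rosa-Hes1 and 4.50, 3.53 and 1.70 CPM in control (adjusted p = 0.481). Cxcr6 had 0.726, 0.848 and 0.436 CPM in Rosa-Hes1 and 0.738, 0.371 and 0.0740 CPM in control (adjusted p = 0.487). Of 5 atypical receptors, which take up chemokines without the usual signal, 4 were tested and 0 passed in edgeR or DESeq2, with 1 at an unadjusted p under 0.05.

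The remaining chemokine family gave no call in edgeR. Of 28 further chemokine symbols, 18 were tested, 11 of 30 gene identifiers had 0 counts in every library, and 0 passed in either direction, with 3 at an unadjusted p under 0.05 (Ccl8, Ccl27a and Cxcl9) and a median log2 fold change of 0.08. DESeq2 called 1, Cxcl9 (log2 fold change 1.62, adjusted p = 0.0264). The most abundant was Cxcl13, a B cell attractant, with 139, 39.8 and 394 CPM in Rosa-Hes1, against 25.2, 124 and 108 CPM in control (log2 fold change 1.15, SE 1.00, adjusted p = 0.553, and 0.06 to 1.64 with 1 library left out, lowest without Rosa-Hes1 replicate 3). Like Ccl5, it was highest in Rosa-Hes1 replicate 3 and low in Rosa-Hes1 replicate 2 and control replicate 1. Pf4, platelet factor 4, had 47.8, 21.1 and 65.7 CPM in Rosa-Hes1, against 17.4, 41.2 and 25.5 CPM in control, and its highest and lowest libraries within Rosa-Hes1 were the same (log2 fold change 0.67, adjusted p = 0.494). Cxcl10, an interferon-induced chemokine, had 42.3, 79.2 and 71.4 CPM in Rosa-Hes1, against 89.7, 106 and 62.0 CPM in control, with overlap (log2 fold change -0.42, adjusted p = 0.431).

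Among 10 enzymes that shed or trim chemokines, 2 were higher and 2 were lower. Over all genes tested, 5.85% passed as higher and 2.41% as lower, and 31.2% had groups that did not overlap. Adam10, a protease known to release CXCL16 from the membrane, had 301, 307 and 307 CPM in Rosa-Hes1, against 362, 356 and 402 CPM in control (log2 fold change -0.29, SE 0.07, adjusted p = 0.0343). It was lower in every Rosa-Hes1 library, as Cxcl16 was, but the call held only without Rosa-Hes1 replicate 2 when libraries were left out (0.0557 to 0.134 in the other 5 cases). Adam17, which also sheds CXCL16, had 398, 359 and 399 CPM in Rosa-Hes1, against 421, 445 and 483 CPM in control, without overlap, and did not pass (log2 fold change -0.22, SE 0.08, adjusted p = 0.107). The matrix metalloproteinases Mmp9 and Mmp12 were higher and the cathepsin gene Ctsl was lower. Their log2 fold changes were 0.73 (SE 0.11), 0.76 (SE 0.18) and -0.54 (SE 0.14), with adjusted p = 0.00997, 0.0402 and 0.0464. Mmp9 passed in 5 of the 6 fits with a library left out, Ctsl in 2 and Mmp12 in 1, and DESeq2 called 3 higher and 2 lower with all libraries.

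Genes that are induced together with chemokines in activated macrophages were listed as well. Of 17 cytokines and mediators tested, Lif, a cytokine of the interleukin 6 family, and Il1rn, the antagonist of the interleukin 1 receptor, were higher (log2 fold changes 0.91 and 1.16, SE 0.12 and 0.21, adjusted p = 0.00643 and 0.0237 by edgeR). DESeq2 called 4 of the 17 higher and 1 lower, and without Rosa-Hes1 replicate 2 edgeR called 4 of the 15 then tested higher. With control replicate 1 or 3 or Rosa-Hes1 replicate 1 or 3 left out, 1 was higher. The Lif call held with any library left out, while Il1rn passed in 2 of 6 such fits (adjusted p 0.00253 to 0.0810). Of 18 NF-kappaB response genes, Tnfaip3, an inhibitor of that pathway, was higher (log2 fold change 0.53, SE 0.10, adjusted p = 0.0193), and it passed in 2 of 6 such fits (0.00866 to 0.0829). The 18 had a median log2 fold change of -0.005, with 9 above 0 and 9 below. At an unadjusted p under 0.05 in edgeR there were 5, and those other than Tnfaip3 had log2 fold changes below 0. Over all genes tested, 5.85% passed as higher. All 14 interferon-linked genes had log2 fold changes below 0 (median -0.20), where 8712 of all 16954 genes tested were below 0 (median -0.01). Listed as 1 response and measured in the same 6 libraries, these genes are not 14 separate observations. Of the 14, 0 passed in edgeR, 2 had an unadjusted p under 0.05 and 1 passed in DESeq2. Their summed level was 1536, 2050 and 2465 CPM in Rosa-Hes1 and 2485, 2426 and 2172 CPM in control, so Rosa-Hes1 replicate 3 lay within the control range. These genes are low in the library that was also lowest for Ccl2, Ccl7, Ccl12 and Cxcl16, Rosa-Hes1 replicate 1, and the part of interferon signalling in those levels was not tested.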

How the data were processed

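RNA of 3 Rosa-Hes1 and 3 control osteoclast cultures was sequenced with a stranded mRNA kit and 75-base paired reads as 1 pool. The authors aligned the reads, trimmed by Sickle, with HISAT2 2.1.0, handled the alignments with SAMtools 1.9, removed duplicates with Picard and deposited raw counts per Ensembl gene from HTSeq-count, 1 table for each library. The submitters' processing notes name GRCm38, whereas the methods name a human build; the identifiers are those of mouse. Reads not assigned to a gene were 17.4% to 18.1% of each table, and all were left out. Ambiguous reads, 5.51% to 6.07% of each table, are part of that share. Symbols and exons were taken from GENCODE release M21; 0.167% of identifiers had no symbol.

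Counts were fitted with edgeR 4.0.16 in R 4.3.3 (TMM normalization, robust quasi-likelihood test, no covariate) for the 16954 genes with at least 10 counts in sum, and p-values were adjusted by Benjamini-Hochberg over all of them with a threshold of 0.05. CPM are counts per 1000000 after TMM scaling. The biological coefficient of variation was 0.124. Replicate libraries differed by 9.49 to 18.4 times the counting variance, and the labels call them biological replicates without saying whether each was a separate mouse, so p-values measure the spread between these libraries. An exact permutation test of 3 against 3 was not used, since 0.10 is the smallest p it allows.

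The chemokines, lists and tests were chosen with earlier results of these data known. Named were all 10 members; of the other chemokines those called and the 3 most abundant; 5 receptors (a result for another is not reported here); from every further list up to 3 called genes with the smallest adjusted p, or every called gene where 5 or fewer were called; and Hes1. Adam17, Zmynd15, Cxcl3, Ccl8, Ccl27a, Cxcl9, Col1a1, Cd4, Cd3e, Cd3g and Gzma were named after their values were seen. Proteins were not compared. Identity was computed over coding bases with Biopython 1.88, and shared stretches were sought in whole transcripts. Alternatives were other scaling factors, filters and tests (DESeq2 1.42.0, limma-voom in limma 3.58.1), a non-robust dispersion, the replicate number as a block and each library left out.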

Additional observations from a re-analysis of the deposited data

How the results depend on the processing

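With 3 libraries in each group, the intervals of Ccl4, Ccl5, Ccl6, Ccl7, Ccl12 and Cxcl2 span more than 1 on the log2 scale. Cxcl16 kept its direction in all 14 alternatives, and its adjusted p was 3.21e-06 to 0.0561, under 0.05 in 13. The count of members lower was 0 without Rosa-Hes1 replicate 1 and otherwise 1 (0 to 1 with libraries left out). Ccl2 passed in none of the 14 (adjusted p 0.0568 to 0.429). The log2 fold change of Ccl4, near 0, became 0.0025 with filterByExpr, 0.026 with limma-voom and 0.026 with the replicate block. With libraries left out it ranged from -0.22 to 0.31, above 0 where control replicate 3 (0.31) or Rosa-Hes1 replicate 1 (0.17) was missing. Ccl5 ranged from -0.17 (Rosa-Hes1 replicate 3 missing) to 0.59, and Ccl6 from -0.38 to 0.32 (control replicate 3 missing). The other chemokines had 1 called higher with DESeq2 (Cxcl9), and 0 to 1 with libraries left out (Cxcl14 without control replicate 1, Cxcl9 without Rosa-Hes1 replicate 2). Over all genes, leaving out a library gave 244 to 1555 higher and 21 to 1091 lower, with the fewest without Rosa-Hes1 replicate 1 and the most without Rosa-Hes1 replicate 2, against 991 and 408 with all libraries. Genes lower were 697 with no filter and 876 with DESeq2. The cause of these moves was not tested.

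Same-numbered libraries of the groups correlated in their deviations by 0.000725, -0.16 and 0.379 for numbers 1, 2 and 3. With 3 libraries in each group, these values cannot show whether the numbers pair the libraries. Number 3 was the one that correlated best with its own number. The numbers are those of the labels; the table of Rosa-Hes1 replicate 3 is numbered 4 in its name. With the replicate block, Cxcl16 had a log2 fold change of -0.51 (adjusted p = 0.0257), and it was again the 1 member called.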
